A study of Ovis aries with 8 samples.

Results

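Actin, myosin and other contractile or cytoskeletal genes were followed in lungs of fetal sheep, on probes chosen by the gene name or description in the scanner files. The descriptions searched named actins, alpha-actinin, myosin, tropomyosin, troponin, calponin, transgelin, caldesmon, cofilin, profilin, gelsolin, filamin, vimentin and desmin, and the gene names were ACTG1, CNN1, TNNC2 and VIM. The search found 21 of 15008 probes, which carry 14 of the 14351 gene or transcript names in the files. Of these, 4 stand for prolactin-related proteins, hormones of the ruminant placenta that were caught only because "prolactin-related" contains the letters of "actin-related". The other 17 probes stand for 12 transcripts: 5 probes for smooth muscle, 3 for striated muscle, 6 for non-muscle genes and 3 for the regulatory subunit of myosin phosphatase.

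The samples were 4 lungs of fetuses infused with 0.2 mg aldosterone over 48 h and 4 lungs of control twins, which per the series' design text received vehicle. The fetuses came from 4 sets of twins at about day 130 of gestation, where term is day 147, and all infusions began 5 days after surgery. Each lung was hybridised to 1 array in 1 colour, from 450 ng of total RNA of whole tissue. A level below is log2 of the processed signal of a probe relative to the 75th percentile of its array, so that a level of 0 lies at that percentile. Levels of different probes are not compared. Of 6 listed markers of fetal lung epithelium, 5 were on the array, among them the surfactant genes SFTPA1, SFTPB and SFTPC, and all 5 were well above background on every array.

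Contraction is driven by myosin pulling on actin filaments. In smooth muscle and in non-muscle cells it starts when calmodulin-bound myosin light-chain kinase phosphorylates the regulatory light chain of myosin, and ends when myosin phosphatase removes that phosphate. In striated muscle the switch lies on the thin filament instead, where troponin and tropomyosin free the actin for myosin. In the fetal lung, smooth muscle surrounds the airways and vessels, and actin and vimentin filaments shape mesenchymal cells throughout the organ.

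Of the 12 transcripts, 5 were read by 2 oligos each. These pairs show how far 2 oligos read the same difference between lungs, which is a weak check where the oligos overlap. Their sequences are printed here 5′ to 3′ as deposited, with the run that both oligos of a pair share in capitals. The pair for MYLK, the kinase above, lies 248 bases apart on the transcript and has no such run in capitals.
MYLK oligo 1: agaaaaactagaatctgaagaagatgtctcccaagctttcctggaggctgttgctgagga
MYLK oligo 2: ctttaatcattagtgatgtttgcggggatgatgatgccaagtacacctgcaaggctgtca
TNNC2 oligo 1: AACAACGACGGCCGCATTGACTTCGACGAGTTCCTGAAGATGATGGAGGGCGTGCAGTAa
TNNC2 oligo 2: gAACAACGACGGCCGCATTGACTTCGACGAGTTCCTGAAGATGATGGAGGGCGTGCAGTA
VIM oligo 1: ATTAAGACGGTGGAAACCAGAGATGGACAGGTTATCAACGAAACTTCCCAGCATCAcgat
VIM oligo 2: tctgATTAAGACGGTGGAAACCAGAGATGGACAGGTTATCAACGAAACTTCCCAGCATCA
CFL1 oligo 1: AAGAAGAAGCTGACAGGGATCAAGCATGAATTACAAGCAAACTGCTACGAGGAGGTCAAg
CFL1 oligo 2: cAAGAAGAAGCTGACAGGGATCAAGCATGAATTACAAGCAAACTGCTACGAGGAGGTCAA
PPP1R12A oligo 1: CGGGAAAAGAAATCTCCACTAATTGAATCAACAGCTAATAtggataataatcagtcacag
PPP1R12A oligo 2: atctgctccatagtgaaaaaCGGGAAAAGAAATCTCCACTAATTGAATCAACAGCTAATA

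One further oligo is shown because it is the actin probe of the set, described as cytoplasmic actin 2 and called TC20725 in the files, with no part in capitals.
TC20725: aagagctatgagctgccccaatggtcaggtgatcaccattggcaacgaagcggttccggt
The files mark the probes as unmapped, so no genome position is given for any of them.

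All 17 contractile and cytoskeletal probes were well above background on all 8 arrays, and none changed past the threshold. By limma's moderated test with Benjamini-Hochberg adjustment over 12168 probes, 0 of the 17 had an adjusted p under 0.05, against a background of 0% of all probes tested. None of the 17 had an unadjusted p under 0.05 either, against 1.87% of all probes, and the smallest unadjusted p among them was 0.215. Unless stated otherwise, this and later group fits held the group alone, without the replicate number of the labels. With that number as a block, 0 of the 17 had an unadjusted p under 0.05, against 539 of the 12168 probes. The smallest p of a member was then 0.0814 (limma). The block gave each of the 17 a smaller standard error and a narrower 95% interval, and each interval still included 0. For CNN1 the standard error was 0.12 with the block and 0.19 without, and for MYLK oligo 2 it was 0.28 and 0.31. Intervals printed without the block are thus the wider ones. With array weights in the fit, 2 of the 17, TC20725 and TC2047, had an unadjusted p under 0.05, against 1282 of the 12168 probes. None of the 17 passed with adjustment. The mean was higher after aldosterone for 9 probes and lower for 8, with a median log2 difference of 0.02, and over all tested probes 51.5% were higher and the median was 0.01. Single differences ran from -0.25 to 0.33, with standard errors of 0.13 to 0.40. In tissue RNA, fewer cells of a type and less RNA per cell cannot be told apart. With 4 lungs a group and these errors, every 95% interval included 0, which bounds each change and does not show that it is absent.

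**Figure D1:**
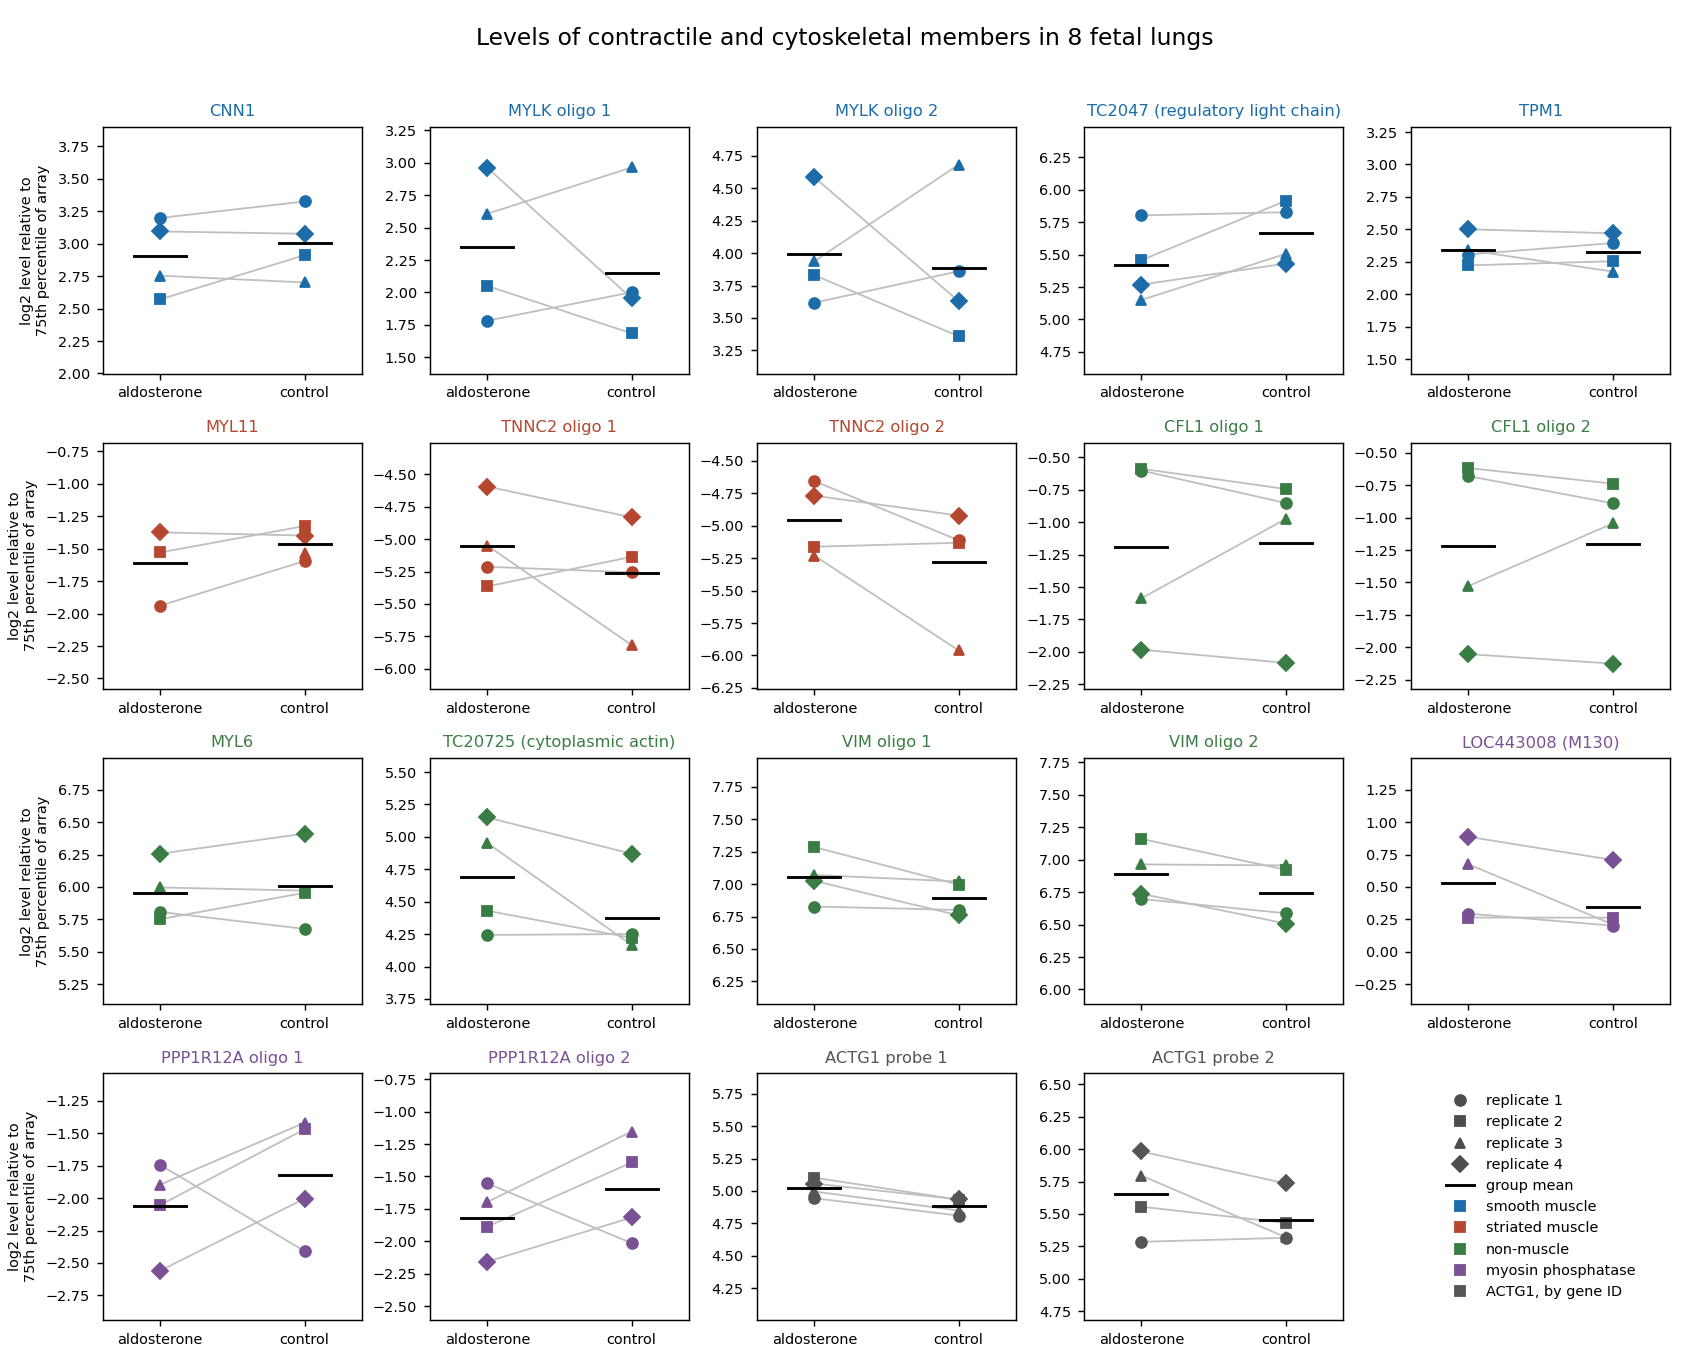
Log2 level relative to the 75th percentile of the array (vertical axes, all spanning the same range) for the 17 contractile and cytoskeletal probes and 2 ACTG1 probes, in 4 aldosterone lungs (left) and 4 control lungs (right); symbols mark the replicate number, grey lines join same-numbered lungs and black bars are group means. TPM1 has the tightest points of the 17 and CFL1 the widest, and ACTG1 probe 1 is the one panel whose groups do not overlap.

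The smooth muscle probes showed no common direction, with 3 higher, 2 lower and a median log2 difference of 0.02. CNN1 encodes calponin 1, which binds actin and tropomyosin and restrains myosin in differentiated smooth muscle. Its levels were 3.20, 2.57, 2.75 and 3.09 in aldosterone lungs, against 3.33, 2.91, 2.70 and 3.08 in control lungs. The groups overlapped, and the log2 difference was -0.10 ± 0.19 (SE, n = 4 each, 95% interval -0.54 to 0.34, limma). This interval leaves room for a level between 0.687 and 1.27 times that of controls. TC2047, described as the regulatory light chain of smooth muscle myosin and so the substrate that MYLK phosphorylates, had levels of 5.80, 5.46, 5.15 and 5.27 in aldosterone lungs, against 5.83, 5.91, 5.51 and 5.43 in control lungs. It had the lowest unadjusted p of the 17, and each aldosterone lung lay below the control lung of the same number, by 0.02 to 0.46. The log2 difference was -0.25 ± 0.19 (95% interval -0.67 to 0.17, limma), and with array weights -0.44 ± 0.17 (adjusted p = 0.46). A lower level in all 4 same-numbered pairs was seen in 5.65% of all probes with a value on every array, and TC2047 was the one member that had it.

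MYLK varied more between lungs than most probes. Its oligo 2 read 3.62, 3.83, 3.94 and 4.58 in aldosterone lungs, against 3.86, 3.36, 4.68 and 3.63 in control lungs. Oligo 1 read 1.78, 2.05, 2.61 and 2.96 in aldosterone lungs, against 2.00, 1.68, 2.96 and 1.95 in control lungs. On both oligos aldosterone lung 4 and control lung 3 stood above the rest, so the high lungs fell in both groups. The log2 differences were 0.20 ± 0.34 for oligo 1 and 0.11 ± 0.31 for oligo 2 (limma), and the intervals reached 0.96 and 0.81. The spread within groups was 0.55 and 0.50 on the log2 scale, which 14.1% and 17.6% of all tested probes exceeded. TPM1, a tropomyosin that lies along the actin filament in smooth and striated muscle, was the steadiest member. It had levels of 2.31, 2.22, 2.34 and 2.50 in aldosterone lungs, against 2.39, 2.25, 2.17 and 2.47 in control lungs. Its log2 difference was 0.02 ± 0.13 (95% interval -0.28 to 0.32, limma), and 94.1% of all tested probes had a larger spread within groups.

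The 3 striated muscle probes had a median log2 difference of 0.21, from 2 oligos of 1 transcript that were higher and a probe of another that was lower. TNNC2 encodes the troponin C of fast skeletal muscle, the calcium sensor of the thin filament. Its oligo 1 read -5.21, -5.36, -5.05 and -4.59 in aldosterone lungs, against -5.26, -5.14, -5.82 and -4.83 in control lungs. Oligo 2 read -4.66, -5.16, -5.23 and -4.77 in aldosterone lungs, against -5.11, -5.13, -5.96 and -4.92 in control lungs. Control lung 3 was the lowest on both oligos, and the other control lungs lay within the range of aldosterone lungs. The log2 differences were 0.21 ± 0.24 and 0.33 ± 0.25, with intervals of -0.35 to 0.76 and -0.23 to 0.89 (limma). Without control lung 3 they were 0.0195 and 0.101. MYL11, the regulatory light chain of fast skeletal muscle myosin, written MYLPF in the files, read -1.94, -1.53 and -1.37 in aldosterone lungs 1, 2 and 4, against -1.59, -1.32, -1.53 and -1.40 in control lungs. The spot of aldosterone lung 3 carried an outlier flag and was dropped from the fit. The log2 difference without it was -0.15 ± 0.18 (limma). That spot would have read 0.28, above every other lung, and with it the difference became 0.32 ± 0.42.

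Skeletal and heart muscle genes outside the contractile machinery were looked at beside these. Of 6 such genes listed, 2 were on the array under a name that could be matched, MB and MYOD1. MB, the oxygen-binding myoglobin, had log2 differences of 0.12 ± 0.32 and 0.23 ± 0.35 on its 2 probes. Its levels on the first of these ran from -4.19 to -3.03 in aldosterone lungs and from -4.38 to -3.27 in control lungs. MYOD1, a transcription factor of the skeletal muscle lineage, differed by 0.09 ± 0.14 on the 1 of its 2 probes that was tested, which was well above background on 3 aldosterone arrays and 4 control arrays (limma). Its levels there ran from -6.04 to -5.55 in aldosterone lungs and from -5.95 to -5.72 in control lungs. The other MYOD1 probe was well above background on only 2 aldosterone arrays and 1 control array and missed the filter. Signals of striated muscle genes were thus above background in lungs of both groups, and their part in the TNNC2 values was not tested.

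Among non-muscle genes, 3 probes were higher, 3 were lower and the median log2 difference was 0.06. VIM encodes vimentin, the intermediate filament protein of mesenchymal cells. Its oligo 1 read 6.83, 7.29, 7.07 and 7.02 in aldosterone lungs, against 6.80, 6.996, 7.02 and 6.76 in control lungs. Oligo 2 read 6.70, 7.16, 6.96 and 6.74 in aldosterone lungs, against 6.59, 6.92, 6.96 and 6.51 in control lungs. On both oligos each aldosterone lung lay above the control lung of its number, by as little as 0.03 and 0.01, although the groups as a whole overlapped. The log2 differences were 0.16 ± 0.14 and 0.15 ± 0.17, with intervals of -0.17 to 0.49 and -0.24 to 0.53 (limma). A higher level in all 4 pairs was seen in 7.68% of all probes with a value on every array, and among members in the 2 VIM oligos and LOC443008, described below. For LOC443008 the pair numbered 2 was nearly tied, with a difference of 0.0007. The 2 VIM oligos share most of their bases and are not independent. In either direction, 4 member probes had the same sign in all 4 pairs, against 13.3% of all probes.

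MYL6 encodes the essential light chain that smooth muscle and non-muscle myosins have in common. Its levels were 5.81, 5.75, 5.996 and 6.26 in aldosterone lungs, against 5.68, 5.95, 5.97 and 6.41 in control lungs. The lungs numbered 4 were the highest of their groups, and the log2 difference between groups was -0.05 ± 0.19 (95% interval -0.48 to 0.38, limma). TC20725, the cytoplasmic actin probe, had levels of 4.24, 4.43, 4.95 and 5.15 in aldosterone lungs, against 4.25, 4.22, 4.17 and 4.87 in control lungs. Aldosterone lungs 3 and 4 and control lung 4 were the high ones. The log2 difference was 0.32 ± 0.25 (95% interval -0.24 to 0.88, limma), and with array weights 0.55 ± 0.19 (adjusted p = 0.46).

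No probe carried the name ACTG1, the gene of cytoplasmic gamma-actin, but 2 probes belong to it by gene ID and share a transcript cluster with TC20725. They lie outside the search and are given for comparison. ACTG1 probe 1 read 4.94, 5.10, 5.00 and 5.06 in aldosterone lungs, against 4.81, 4.93, 4.85 and 4.93 in control lungs. Here every aldosterone lung was above every control lung. Groups without overlap, in either direction, were found for 1.31% of all tested probes and for 0 of the 17 members. The log2 difference was 0.14 ± 0.12 (unadjusted p = 0.246, limma). ACTG1 probe 2 read 5.29, 5.56, 5.80 and 5.98 in aldosterone lungs, against 5.32, 5.43, 5.32 and 5.74 in control lungs. Its groups overlapped, its log2 difference was 0.20 ± 0.18 (limma), and its high lungs were those of TC20725. The only probe that could be matched to ACTB, cytoplasmic beta-actin, was well above background on 0 arrays and was not tested. Whether that low signal lay with the probe or with the transcript was not tested either. ARPC5L, a subunit of the Arp2/3 complex that starts branched actin filaments, read 2.08, 2.34, 2.09 and 2.33 in aldosterone lungs, against 1.96, 2.04, 1.98 and 2.10 in control lungs. It was higher in all 4 same-numbered pairs while the groups overlapped, and the log2 difference was 0.19 ± 0.13 (limma).

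CFL1 encodes cofilin 1, which severs and disassembles actin filaments. It varied more within groups than any other member. Oligo 1 read -0.60, -0.59, -1.59 and -1.98 in aldosterone lungs, against -0.85, -0.74, -0.97 and -2.08 in control lungs. Oligo 2 read -0.68, -0.62, -1.53 and -2.05 in aldosterone lungs, against -0.89, -0.74, -1.05 and -2.13 in control lungs. The lungs numbered 4 were the lowest of both groups, and aldosterone lung 3 stood between them and the rest. The log2 differences between groups were -0.03 ± 0.40 and -0.02 ± 0.40, with intervals of -0.93 to 0.88 and -0.93 to 0.89 (limma). With the replicate number as a block, the intervals were narrower, at -0.45 to 0.40 and -0.39 to 0.35 (limma). The spread within groups was 0.66 on both oligos, and 8.44% and 8.53% of all tested probes exceeded it.

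Sorted by the replicate number of the labels, the mean levels of CFL1 oligo 1 were -0.73, -0.67, -1.28 and -2.03 for numbers 1 to 4, and those of oligo 2 were -0.78, -0.68, -1.29 and -2.09. A limma F test of the number, with group in the model, was added after these values were seen. It gave unadjusted p = 0.00444 and 0.00200 for the 2 oligos, and adjusted p = 0.104 and 0.0899 over all probes, so neither passed the threshold. Over the 17 members, 0 passed with adjustment, against 0.304% of all probes, and 6 had an unadjusted p under 0.05, which is 35.3%, against 24.8% of all probes. Of these 6 probes, 2 are the overlapping CFL1 oligos. Brightness moved with the number too. The 75th percentile of the array was 10.73, 10.52, 10.32 and 10.23 in aldosterone lungs 1 to 4 on the log2 scale, against 10.70, 10.45, 10.47 and 10.29 in control lungs. Same-numbered arrays also lay side by side on the slide, with numbers 1 and 2 in one row and 3 and 4 in the other. Twin set, place on the slide and brightness cannot be told apart here. Probes for listed markers of lung epithelium, endothelium and blood cells were put to the same F test (limma). Of 22 such probes, 0 passed with adjustment and 7 had an unadjusted p under 0.05, against the same 24.8% of all probes. The 7 were 2 each for AQP5, AHSP and HBB and 1 of the 4 for KDR, and those for SFTPA1, SFTPB, SFTPC, SCGB3A2, PECAM1, CD14 and FLT1 were not among them. AQP5, a water channel of alveolar type I cells, read -0.72, -1.16, -0.50 and -0.06 on its first probe in aldosterone lungs, against -0.78, -0.88, -0.68 and 0.09 in control lungs (adjusted p = 0.110 for the number, limma). HBB, the beta chain of haemoglobin, read 4.57, 6.86, 5.68 and 4.77 on its first probe in aldosterone lungs, against 5.09, 7.18, 6.73 and 4.48 in control lungs (adjusted p = 0.0693 for the number, limma). The part of these cells in the CFL1 values was not tested.

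**Figure D2:**
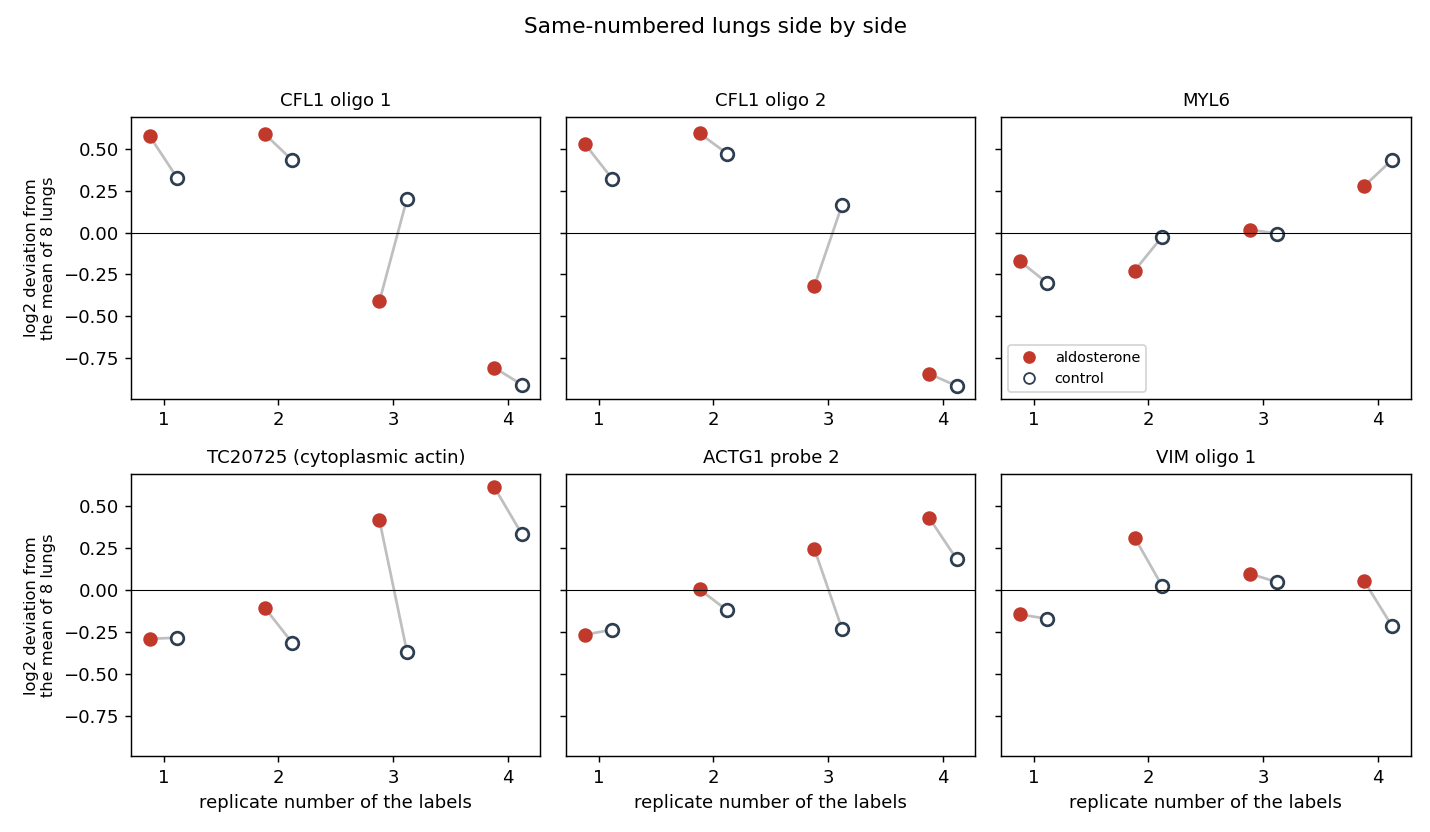
Log2 deviation of each lung from the mean of 8 lungs (vertical axis) by replicate number of the labels (horizontal axis) for 6 probes, with aldosterone lungs as filled and control lungs as open points; grey lines join same-numbered lungs. Both lungs numbered 4 were low for CFL1 and high for MYL6, TC20725 and ACTG1 probe 2.

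Myosin phosphatase was read by 3 probes. PPP1R12A, its subunit that brings the phosphatase to myosin, read -1.74, -2.05, -1.90 and -2.56 on oligo 1 in aldosterone lungs, against -2.41, -1.47, -1.42 and -2.004 in control lungs. Oligo 2 read -1.55, -1.89, -1.70 and -2.16 in aldosterone lungs, against -2.01, -1.39, -1.15 and -1.82 in control lungs. The aldosterone lung was the lower one in the pairs numbered 2, 3 and 4 and the higher one in pair 1, on both oligos. The log2 differences were -0.24 ± 0.27 and -0.23 ± 0.22, with intervals of -0.84 to 0.36 and -0.73 to 0.27 (limma). LOC443008, described as the M130 myosin-binding subunit, went the other way. It read 0.29, 0.26, 0.67 and 0.89 in aldosterone lungs, against 0.20, 0.26, 0.21 and 0.71 in control lungs. The log2 difference was 0.18 ± 0.19 (95% interval -0.25 to 0.62, limma), with most of it in the pair numbered 3. The RefSeq gene table used for names does not list this ID, and whether it and PPP1R12A are 1 gene was not tested.

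**Figure D3:**
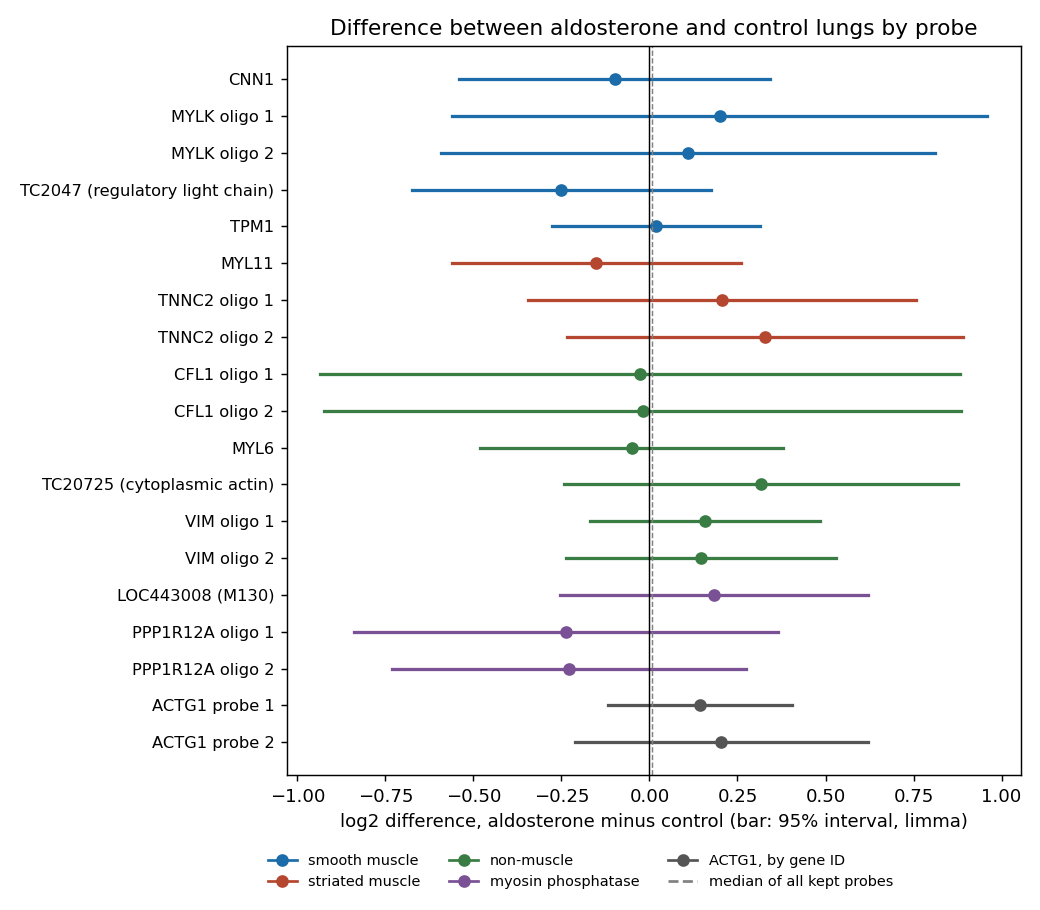
Log2 difference, aldosterone minus control (horizontal axis), for the 17 contractile and cytoskeletal probes and the 2 ACTG1 probes, with 95% intervals from limma; colours mark the class and the dashed line is the median of all tested probes. Every interval includes 0, and the widest are those of CFL1 and MYLK.

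The paired oligos, which overlap for every gene but MYLK, read nearly the same pattern over lungs, whatever the group. After each oligo was centred on its mean of 8 lungs, the 2 CFL1 oligos, which share a run of 59 bases, differed by at most 0.09 on the log2 scale. The largest disagreement was 0.13 for VIM and 0.17 for PPP1R12A, which share runs of 56 and 40 bases. For MYLK, whose longest shared run is 7 bases, it was 0.36, and its lungs still kept a wide common spread. TNNC2 was the exception, since its oligos share 59 bases and differed by up to 0.52, in aldosterone lung 1. Its levels were low on both oligos, from -5.96 to -4.59, and the part of low signal in this scatter was not tested. The differences between groups of the 2 oligos of a gene were at most 0.12 apart for all 5 genes.

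**Figure D4:**
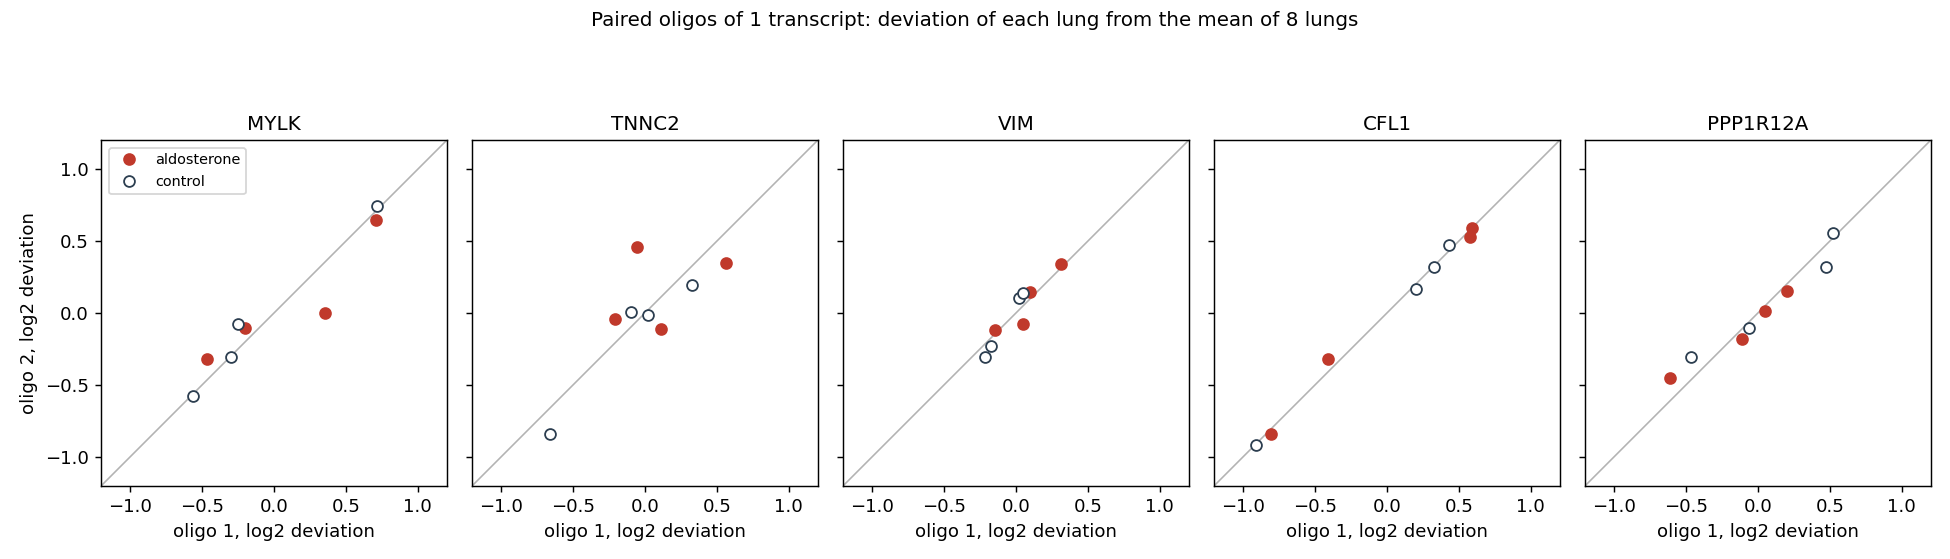
Deviation of each lung from the mean of 8 lungs on oligo 2 (vertical axis) against oligo 1 (horizontal axis), in log2 units, for the 5 transcripts with 2 oligos; filled points are aldosterone lungs, open points control lungs and the grey line marks equality. CFL1 and VIM lie close to the line, and TNNC2 scatters most.

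In the list of regulators of actin and contraction, 6 of 81 genes were on the array under a name that could be matched, PPP1R12A among them. By limma, 0 of the 6 passed the adjusted threshold and 0 had an unadjusted p under 0.05, with 2 higher and 4 lower after aldosterone. CALM2 encodes calmodulin, which activates MYLK once calcium is bound. It read 4.29, 3.89, 3.81 and 3.69 in aldosterone lungs, against 4.16, 4.15, 4.11 and 3.93 in control lungs, a log2 difference of -0.17 ± 0.16. The small GTPases RHOA and RAC1, which act on contraction and on the actin network, differed by 0.04 ± 0.18 and 0.05 ± 0.15. EDNRA, the endothelin receptor through which vessels contract, differed by 0.00 ± 0.20 and -0.04 ± 0.20 on its 2 probes. RHOB, a related GTPase, read -3.28, -3.76, -3.81 and -3.27 in aldosterone lungs, against -3.35, -3.48, -3.55 and 0.23 in control lungs. Control lung 4 alone stood high, and the log2 difference was -0.99 ± 0.77 with it and -0.07 ± 0.19 without it (limma).

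The prolactin-related probes were mostly not well above background in these lungs. PRP1 was well above background on 0 arrays with both of its oligos. PRP2 was so on 1 control array with its oligo 1 and on 0 arrays with its oligo 2. All 4 missed the filter and were not tested.

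Most of the contractile machinery was out of reach of named probes. Of the genes listed as smooth muscle, 3 of 16 were measured, of those listed as striated muscle 2 of 41, and of those listed as non-muscle actin and cytoskeleton 5 of 62. No description held alpha-actinin, transgelin, caldesmon, profilin, gelsolin, filamin or desmin. Over the array, 13639 of 15008 probes carried no gene name that could be matched, so other members may be present without a name.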

How the data were processed

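RNA of 8 fetal lungs was measured on 1-colour Agilent arrays. The deposited files hold spot intensity, which per the file headers Agilent Feature Extraction 10.1.1.1 background-subtracted and detrended. The authors' deposited log2 table differs from log2 of that intensity by a fixed amount per array and was an alternative. Here each array was scaled to its 75th percentile on the log2 scale, 74 values with outlier flags were dropped, and 12168 probes well above background on at least 4 arrays were kept. The share of spots well above background was 76.5% in aldosterone lung 4, 85.4% in control lung 4 and 79.6% to 81.6% on the other arrays. The number of arrays limits precision. Groups came from the labels. They were compared with limma 3.58.1 in R 4.3.3 (two-sided, Benjamini-Hochberg, threshold 0.05), with the group alone in the main model. The fit was also run on simulated data with independent noise in each lung. Those data hold no effect of twin set, slide or brightness, so the run cannot check the fit for these. RefSeq (ARS-UI_Ramb_v3.0) gave names for 1369 probes. The members and lists were chosen with earlier results of these data known. The naming rule took in every contractile member, ACTG1 and the 4 regulators of smallest p (RHOB, CALM2, PPP1R12A, RAC1). ACTB, ARPC5L, RHOA, EDNRA, MB, MYOD1, AQP5 and HBB were named after their values were seen. After removal of group means, same-numbered lungs correlated at 0.446, 0.275, 0.280 and 0.538 over 12146 probes, and others at -0.449 to 0.204. The labels name twins without tying the replicate number to a twin set. Unlike-numbered lungs also exceeded 0.1, with 0.204 for aldosterone lung 1 and control lung 2, and 0.110 for aldosterone lung 3 and control lung 4. Same-numbered arrays lay side by side on the slide, so these correlations cannot show that the numbers are twin pairs. A pair here means 2 lungs of the same number. Alternative settings were the background correction, scaling, filter, block, array weights, row of the slide and single lungs left out.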

Additional observations from a re-analysis of the deposited data

Results flagged for a closer look

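Among the lungs of a group, 1 stood apart for 2 of the 17 members, both times control lung 4. It read 4.87 for the cytoplasmic actin probe TC20725, where the other control lungs lay between 4.17 and 4.25. For LOC443008, the M130 myosin-binding subunit, it read 0.71, and the other control lungs lay between 0.20 and 0.26. The gap to the next lung was 0.88 of the whole range of the group in both cases, above Dixon's critical value for 4 samples. Dixon's test was made on 33 groups of 4 lungs, and chance flags about 1 in 20. Aldosterone lung 4 was also the highest of its group for both probes, at 5.15 and 0.89.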

How the results depend on the processing

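No member passed the threshold under any of the 17 alternatives, and 9 of the 17 members kept their direction under all of them. In all, 25 of 289 member values changed sign, and the lowest adjusted p was 0.46 (limma). TPM1 became -0.0206 with median centring and -0.0403 with the authors' values, MYL6 became 0.0305 with array weights, and MYL11 became 0.32 with spots of outlier flags kept, an alternative chosen after seeing the data. Leaving out 1 lung gave ranges that crossed 0 for CNN1 (-0.20 to 0.0121), MYLK oligo 1 (-0.00463 to 0.47) and oligo 2 (-0.0880 to 0.38), TPM1 (-0.0343 to 0.0674), MYL11 (-0.27 to 0.0113), CFL1 oligo 1 (-0.33 to 0.24) and oligo 2 (-0.33 to 0.26), and MYL6 (-0.16 to 0.0851). The smooth muscle median ran from -0.0880, without aldosterone lung 4, to 0.0585, the non-muscle median from 0.0359 to 0.182, and the striated median, which was that of TNNC2 oligo 1 at both ends, from 0.0195, without control lung 3, to 0.348, without control lung 4. Normexp with quantile normalization gave 0.0759 and 0.0644 for the 2 TNNC2 oligos. The smooth muscle median was -0.0206 with median centring, -0.0403 with the authors' values and -0.0402 with the brightest probe of each gene. Median centring and the authors' values differ from the main scaling by a fixed amount per array. They thus moved all probes with a value on every array alike. The median over all tested probes was 0.007 in the main analysis, -0.032 with median centring and -0.050 with the authors' values. The cause of the other shifts was not tested.

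With the replicate number as a block, 0 probes and 0 members passed with adjustment and 539 probes and 0 members had an unadjusted p under 0.05. The smallest adjusted p of a member was 0.878, and the block changed no call. Probes differing between numbers, 37 in the main analysis, were 96 after normexp and quantile normalization, 72 with median centring, 9 with the authors' values, 8 without a filter and 85 with the strictest filter, and 5 to 37 with 1 lung left out. No member was among them in any of these. Probes with an unadjusted p under 0.05 between groups, 228 in the main analysis, were 1282 with array weights, 539 with the block, 343 with the row of the slide as a block and 143 to 422 with 1 lung left out. Array weights also took members with such a p to 2, against 0 in the main analysis.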
